A study of Mus musculus with 17 samples.

Results

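The immunoglobulin kappa variable (Igkv) genes were followed through RNA sequencing of the mouse cochlea. Members were all rows of the deposited table with the biotype IG_V_gene and a name that begins with Igkv, which gave 100 genes of 35285. They were 100 of the 211 variable-segment rows of all immunoglobulin loci, and 29 rows of Igkv pseudogenes were left out. The 17 libraries came from wild-type C57BL/6J males, 8 weeks old, and the labels give cochlear cells as the tissue and interstitial cells as the cell type. The control group (3 libraries) received saline without noise, and the noise exposure (NE) group (7 libraries) was exposed for 2 h to noise of 8 to 16 kHz with a level of 100 dB SPL. The brimonidine group (7 libraries) had that exposure and 3 intraperitoneal injections of brimonidine (1 mg/kg), a drug that activates α2-adrenergic receptors. None of these groups received brimonidine without noise. Cochleae were taken on the second day after exposure.

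Kappa light chains pair with heavy chains to form most mouse antibodies. During B-cell development an Igkv segment is joined by recombination to a joining segment (Igkj), and splicing then links the product to the constant segment Igkc. Each B cell normally keeps a single productive kappa rearrangement, and plasma cells, which secrete antibody, carry far more of its transcript than resting B cells. The Igkv transcripts of a tissue thus come from the B-lineage clones whose RNA was sampled.

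The members lay on chromosome 6 (GRCm38/mm10) between positions 67555497 and 70704177, a stretch of 3.15 Mb. The joining segments followed at 70722562-70723927 and Igkc at 70726435-70726966. There were 38 members on the plus strand and 62 on the minus strand, in 20 families by name, and each had 2 exons. The ends of the variable segments are shown for the genes on which the results turn, because this stretch holds the V-encoded part of the third complementarity-determining region. Sequences are from the GENCODE M21 transcripts, 60 bases each, written 5′ to 3′, and the capitals mark the codon of the conserved cysteine at the end of the framework. The genes with the highest share, 1 or the other of which came first in each library, ended as follows.
Igkv2-109 (chr6:68303099-68303158, plus strand): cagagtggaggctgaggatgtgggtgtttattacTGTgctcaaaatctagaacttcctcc
Igkv10-96 (chr6:68631963-68632022, minus strand): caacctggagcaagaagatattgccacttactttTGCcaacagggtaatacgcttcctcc
The genes called higher after noise, with or without brimonidine, ended in these sequences.
Igkv1-133 (chr6:67725602-67725661, plus strand): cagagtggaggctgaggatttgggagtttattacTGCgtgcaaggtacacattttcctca
Igkv11-125 (chr6:67913993-67914052, plus strand): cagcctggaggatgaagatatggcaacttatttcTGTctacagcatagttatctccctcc
Igkv6-25 (chr6:70215898-70215957, plus strand): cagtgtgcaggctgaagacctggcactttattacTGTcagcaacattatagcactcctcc
Igkv8-21 (chr6:70314895-70314954, minus strand): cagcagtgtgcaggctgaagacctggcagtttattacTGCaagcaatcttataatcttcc
Igkv8-30 (chr6:70117061-70117120, minus strand): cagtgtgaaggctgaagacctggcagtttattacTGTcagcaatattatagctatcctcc
Igkv9-120 (chr6:68050397-68050456, plus strand): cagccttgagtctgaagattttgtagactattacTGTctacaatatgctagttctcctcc
Igkv4-50 (chr6:69700767-69700826, minus strand): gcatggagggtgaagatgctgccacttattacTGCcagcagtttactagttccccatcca
The cysteine codon (TGT or TGC) was found near the end in 97 of the 100 members. Among all members there were 94 distinct ends, so some genes cannot be told apart from this stretch alone. The closely alike pair Igkv17-127 and Igkv17-121, both among the 8 highest genes, shows how little can separate members.
Igkv17-127 (chr6:67861600-67861659, plus strand): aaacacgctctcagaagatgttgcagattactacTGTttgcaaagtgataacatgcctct
Igkv17-121 (chr6:68037259-68037318, plus strand): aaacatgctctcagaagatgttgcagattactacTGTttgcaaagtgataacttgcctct

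Likeness between members bears on how counted fragments were divided. Over whole transcripts, identity to the nearest other member had a median of 91.7% and ranged from 64.9% to 98.7%. At least 1 stretch of 50 bases was shared with another Igkv row by 75 members, and 14 members shared more than 50% of theirs. The most alike pairs were Igkv6-29 and Igkv6-20 (98.7% identity), Igkv8-28 and Igkv8-19 (97.6%), Igkv17-127 and Igkv17-121 (97.5%), and Igkv10-95 and Igkv10-94 (97.1%). The levels of these pairs are uncertain to the extent that fragments could be assigned to either gene, and the treatment of such fragments is not given in the sources used here.

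The libraries held between 14457733 and 18288854 counted fragments. Control 2 stood apart from the other 16 libraries in several marker lists. Its plasma cell list summed to 286.9 FPKM (fragments per kilobase of exon, scaled to the fragments counted in the library), against 749.6 and 921.4 in the other controls and 712.4 to 1608 in the 14 exposed libraries. Its neutrophil list summed to 10030.4 FPKM against at least 40296 in the exposed libraries. Its mature B-cell list, by contrast, summed to 115.2 FPKM, the highest of the 17 libraries. The tissue label was checked with a hair cell list, which summed to 13.9 to 32.1 FPKM, and with 10 genes of supporting and strial cells, which summed to 563.1 to 1410.2 FPKM. Control 2 held the highest value of both, against at most 20.1 and 934.9 FPKM in the exposed libraries. It was also the highest in the erythroid, osteoblast and B-cell precursor lists (10905.9, 1379.4 and 65.3 FPKM). Genes of cerebellar and hindbrain neurons summed to 578.6 FPKM in control 2, 217.6 and 226.2 FPKM in the other controls and 19.4 to 80.6 FPKM in the exposed libraries. The median was 22.1 FPKM in NE and 22.6 FPKM in brimonidine. All 10 tested were called lower in NE and in brimonidine against control, against 5.49% and 5.56% of all genes. Without control 2, Zic2 lost its call in both (log2 fold change -0.88 and -0.77). The part of these neuron genes in the Igkv results was not tested.

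The Igkv total, the summed FPKM of the 100 members, was 6979.6, 870.4 and 7871 FPKM in controls 1, 2 and 3. In the NE group the lowest library had 5802, the median 11271 and the highest, NE 2, 17154 FPKM. In the brimonidine group these were 6357, 7758 and 9064 FPKM. Control 2 lay far below every other library, and the remaining ranges overlapped, with 5 of 7 NE libraries and 3 of 7 brimonidine libraries above all controls.

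The mean total was 5240.2 ± 3811 FPKM in controls (SD, n = 3), 10635 ± 3850.0 in NE (SD, n = 7) and 7724 ± 1056 in brimonidine (SD, n = 7). The ratio of means was 2.03 for NE over control and 1.43 without control 2. For brimonidine over NE it was 0.726, and no brimonidine library exceeded the highest NE library. For brimonidine over control it was 1.47, and without control 2 it was 1.04. These ratios describe the chosen members and carry no test. In fragments, the pool numbered 4868 in control 2 and 33905 to 112284 in the other 16 libraries, or 0.0321% to 0.634% of all counted fragments. In bulk RNA, fewer cells of a type and less RNA per cell cannot be told apart.

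**Figure D1:**
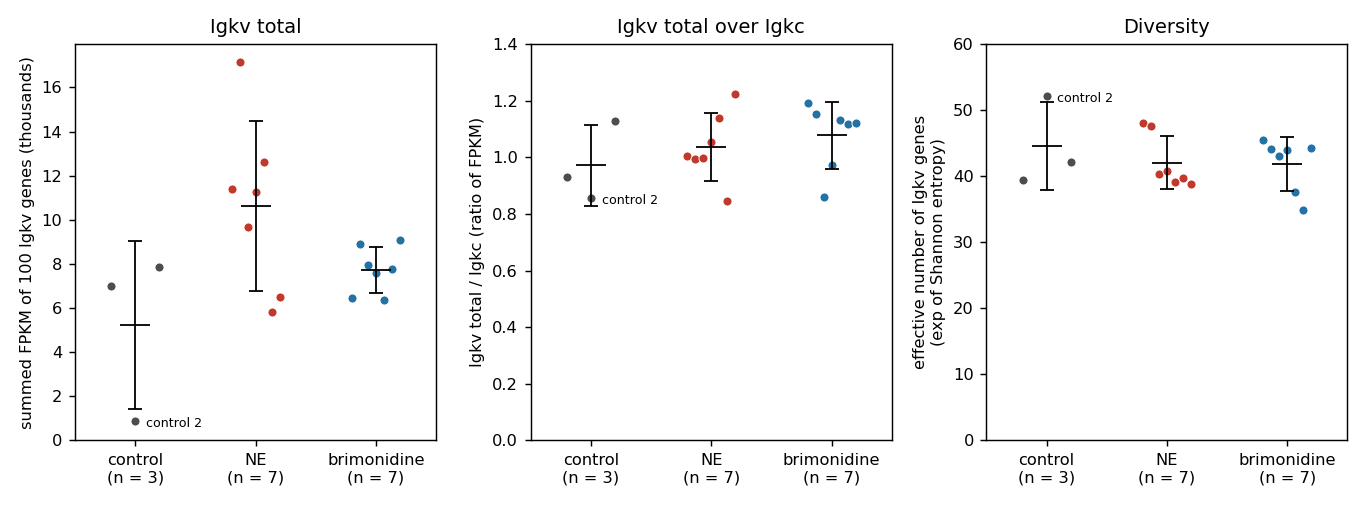
Summed Igkv FPKM (left), the ratio of that sum to Igkc (middle) and the effective number of Igkv genes (right) in each library of the 3 groups. Points are libraries, bars are the mean and SD, and control 2 is named. The total of control 2 (870.4 FPKM) lies far below the others, its ratio to Igkc (0.854) lies within the range of the others, and its effective number (52.1) is the highest.

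Igkc, the constant segment carried by every kappa transcript, moved with the pool. It measured 7506, 1019 and 6971 FPKM in controls 1, 2 and 3. NE libraries had 5310.2 at the lowest, 10679 at the median and 17269 FPKM at the highest, and brimonidine libraries 5422, 7722 and 9241 FPKM. Its log2 fold change was 1.37 for NE against control (limma, adjusted p = 0.191), -0.44 for brimonidine against NE (adjusted p = 0.871) and 0.93 for brimonidine against control (adjusted p = 0.292). None of the 3 passed the threshold of an adjusted p under 0.05, and the groups overlapped. Without control 2 the comparisons with control gave 0.43 for NE (limma, adjusted p = 0.625) and -0.02 for brimonidine.

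The ratio of the Igkv total to Igkc ranged from 0.846 to 1.22 over the 17 libraries. Its mean was 0.971 ± 0.142 in controls, 1.04 ± 0.120 in NE and 1.08 ± 0.119 in brimonidine (SD, n = 3, 7 and 7). The ratio to the summed heavy-chain variable genes was also narrow, between 1.13 and 1.34. The 100 kappa members made up 92.5% to 93.3% of kappa plus lambda variable FPKM in controls, 93.4% to 94.2% in NE and 93.9% to 95.3% in brimonidine. The means of this last share were 92.8%, 94.0% and 94.5%, and controls did not overlap with either exposed group, while NE and brimonidine overlapped. Only 3 lambda variable genes made up the remainder.

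Expression was spread over many members with a pair in the lead. Igkv2-109 was the highest gene in 9 libraries and Igkv10-96 in 8, and these were the only members among the 10 highest genes of all 17 libraries. Igkv2-109 held 16.3%, 3.76% and 5.40% of the Igkv total in controls 1, 2 and 3. In NE its share was 3.24% at the lowest, 9.76% at the median and 15.4% at the highest, and in brimonidine it was 6.89%, 8.95% and 15.7%. Igkv10-96 was steadier, with 6.35%, 8.88% and 11.8% in the controls and 4.48% to 9.72% in the exposed libraries.

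The 8 genes with the highest mean were Igkv2-109, Igkv10-96, Igkv4-68, Igkv17-127, Igkv1-117, Igkv6-32, Igkv1-135 and Igkv17-121, and together they held 38.1% of the pool on average (29.3% to 44.6% by library). A mean of at least 100 FPKM was reached by 28 members and one under 1 FPKM was found for 4. Above 0 in all 17 libraries were 80 members, 73 had at least 1 FPKM in all, and 2 never reached 1 FPKM. The level of Igkv2-109 was 1136, 32.8 and 424.7 FPKM in controls 1, 2 and 3. In NE it ran from 370.1 over a median of 1004 to 1674 FPKM, and in brimonidine the median was 774.4 and the highest 996.2 FPKM, with every library above controls 2 and 3, so all 3 groups overlapped.

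**Figure D2:**
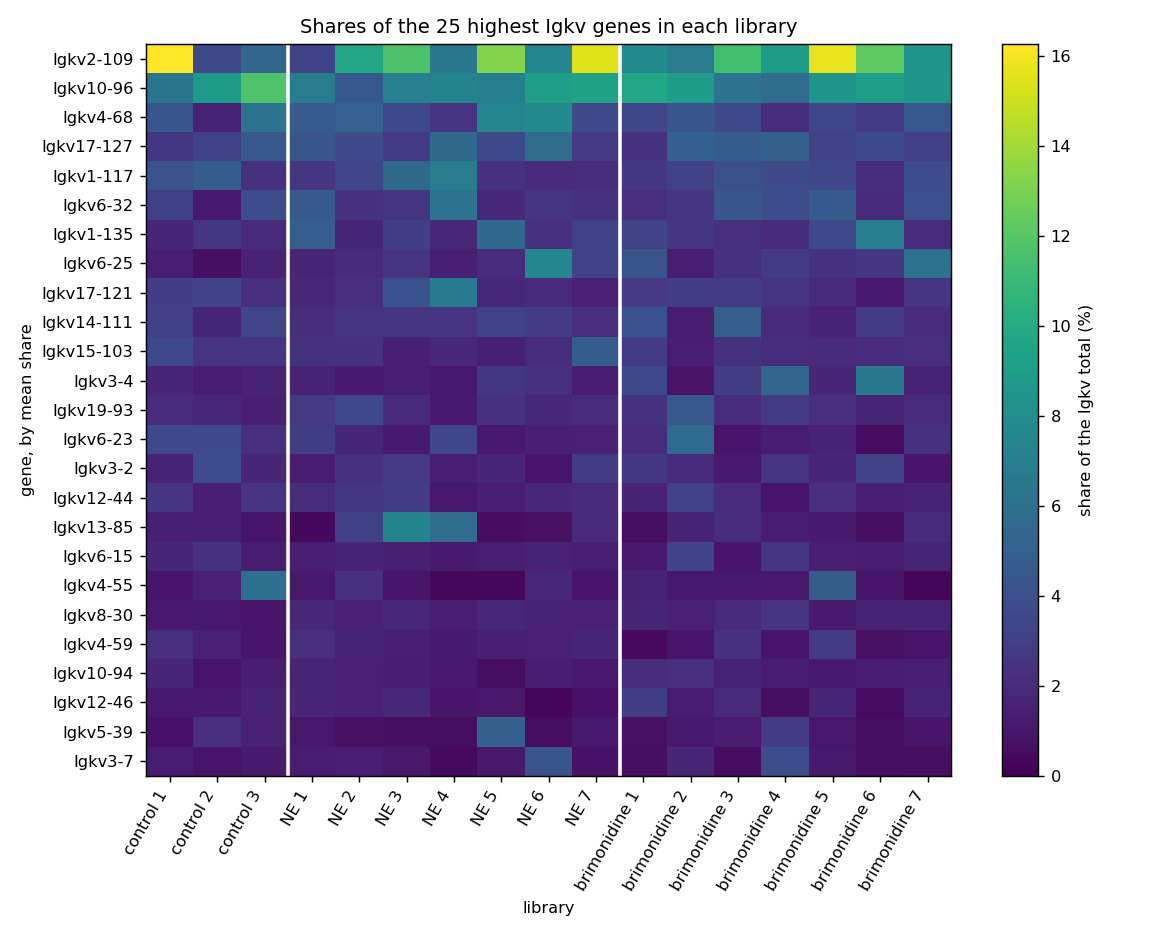
Share of the Igkv total (%, color) held by the 25 genes with the highest mean share (rows) in the 17 libraries (columns, white lines between groups). Either Igkv2-109 or Igkv10-96 has the highest share in every library, at up to 16.3%, and other genes such as Igkv13-85, Igkv4-55 and Igkv5-39 are high in 1 to 3 libraries.

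Shares of single genes varied between libraries. For the 31 members with a mean share of at least 1%, which held 77.0% of the pool, the coefficient of variation over the 17 libraries had a median of 42.8% and ranged from 22.4% (Igkv10-96) to 158.1% (Igkv14-100). Fragment counting alone would give a median of 4.51% and at most 7.10%, and the remainder holds both the differences between mice and those of library preparation, which cannot be told apart. The summed absolute difference of shares between a pair of libraries, halved so that it gives the percent of the pool placed on other genes, had a median of 28.1% over the 136 pairs and ranged from 18.6% to 37.0%. It was 28.4% at the median within NE, 27.1% within brimonidine and 27.6% between NE and brimonidine. Libraries of a group were thus about as far from each other as from those of the other exposed group.

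Diversity was given as the effective number of genes, the exponential of the Shannon entropy of the shares, which equals the number of genes if all had equal shares. It was 39.4, 52.1 and 42.1 in controls 1, 2 and 3. NE libraries had 38.8 at the lowest, 40.3 at the median and 48.1 at the highest, and brimonidine libraries had 34.8, 43.9 and 45.4. The highest value belonged to control 2, the library with the smallest pool, and the other libraries of the groups overlapped. Genes above 0 numbered 88 to 98 by library. Thinned to the 4868 fragments of control 2, the expected number was 82.0 to 88.0, so the number in control 2 (88) was not below the others at an equal number of Igkv fragments. This thinning treats fragments as independent molecules and covers counting error only. Over the 20 families the effective number was 11.4 to 13.2.

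Shares were uneven along the locus. The 33 members farthest from the joining segments held 47.9% of the pool, the 33 in the middle 24.6% and the 34 nearest 27.4%. The farthest part held 47.3% ± 4.61 in controls, 47.7% ± 3.37 in NE and 48.4% ± 4.26 in brimonidine (SD, n = 3, 7 and 7). The middle part held 25.6% ± 5.23, 25.8% ± 3.14 and 23.0% ± 3.02 in the same order, and the nearest part 27.0% ± 3.27, 26.5% ± 2.30 and 28.5% ± 3.95. These differences between groups were not tested. Median levels of single genes were similar along the locus (52.6, 47.0 and 50.3 FPKM), and the leading pair sat in the farthest part. Plus-strand members held 47.4% of the pool with 38 genes.

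**Figure D3:**
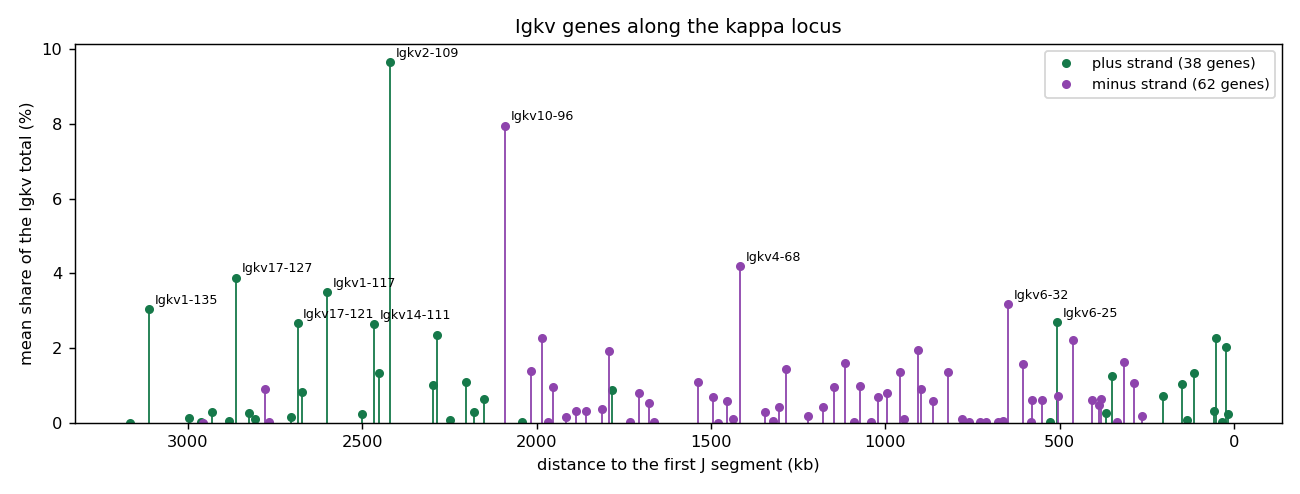
Mean share of the Igkv total (%, n = 17 libraries) of each of the 100 genes against its distance to the first joining segment (kb, decreasing to the right), colored by strand. Igkv2-109 and Igkv10-96 stand out at 9.66% and 7.95%, at 2419 and 2090.1 kb from the joining segments.

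Among the families, family 4 was the largest, with 26 genes and 16.7% of the pool. Family 6 (9 genes) held 12.7%, family 2 (3 genes) 9.89%, family 10 (3 genes) 9.36%, family 1 (10 genes) 8.78% and family 3 (9 genes) 8.06%. Igkv2-109 held 9.66% of the pool within family 2, and Igkv10-96 held 7.95% within family 10, where Igkv10-94 held 1.38%.

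Noise exposure was compared with control gene by gene. Of the 100 members, 94 had at least 1 FPKM in at least 3 of the 10 libraries and were tested, 6 were not, and 6 of those tested were higher in NE and 0 lower. A gene counted as called with a limma adjusted p under 0.05 and a log2 fold change of 1 or more in size, on the log2(FPKM + 1) scale. Over all 15950 genes tested, 0.27% were higher and 5.49% lower by the same rule. Igkv1-133, Igkv11-125, Igkv6-25, Igkv8-21, Igkv8-30 and Igkv9-120 were the 6, each a variable segment, and their ends are printed above. At an unadjusted p under 0.05, 27 members were higher and 0 lower, against 10.6% and 22.3% of all genes. The fold change was above 0 for 84 of the 94, and its median was 1.27 against -0.04 over all genes tested. With array weights, which let libraries count unequally, 71 of 94 were above 0 and the median was 0.57.

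The median shift was smaller without control 2. The median over the members was then 0.38 against -0.01 over all genes, 72 of 94 fold changes were above 0, and only Igkv9-120 was called. The adjusted p of the other 5 genes was then between 0.0532 and 0.128. At an unadjusted limma p under 0.05, 9 members were then higher and 3 lower, against 996 and 2139 of all 15431 genes. Without control 2 the log2 fold change of Igkv6-25 was 1.21 in place of 2.57 and that of Igkv8-30 1.14 in place of 2.09. Those of Igkv8-21 (1.42 in place of 1.38), Igkv1-133 (1.75 in place of 2.04) and Igkv11-125 (2.39 in place of 2.77) changed less. Without control 1 there were 14 called members and without control 3 there were 10. With each library left out in turn, Igkv9-120 remained called, with a log2 fold change between 1.05 and 1.30. Igkv6-25 lost its call without control 2 or without any 1 of the NE libraries. Igkv8-30 lost it without control 2 or NE 1, 2, 3, 4 or 5, and Igkv8-21 without control 2 or 3 or NE 1, 2, 3 or 7. Igkv1-133 lost it without control 2 or 3, and Igkv11-125 without control 2 or 3 or NE 2.

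Igkv9-120, a gene that the study chose from these libraries and named as a qPCR target, measured 40.8, 28.4 and 38.2 FPKM in controls 1, 2 and 3. In NE it had 55.6 FPKM at the lowest, 78.3 at the median and 136.9 at the highest, so that the groups did not overlap. The log2 fold change was 1.20 (SE 0.24, limma adjusted p = 0.00745). As a share of the pool it did not differ by the same rule (log2 fold change -0.24, limma adjusted p = 0.771), the value without control 2 was 0.62 (adjusted p = 0.270), and control 2 had the highest share of the 17 libraries, 3.26%. Its level in control 2 was thus close to that of the other controls although the pool there was several times smaller. Igkv12-41, the other kappa gene named by the study, was not called in NE against control. With each library left out its log2 fold change was 0.97 to 2.70, and over all settings its limma adjusted p was 0.0426 to 0.858. It was called without control 3 and with all 17 libraries in 1 model.

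Igkv8-21 also had like levels in the controls. It measured 14.7, 14.3 and 11.9 FPKM in controls 1, 2 and 3, and from 19.5 over a median of 34.9 to 80.8 FPKM in NE, with no overlap. The log2 fold change was 1.38 (SE 0.38, limma adjusted p = 0.0341). Igkv1-133 was low throughout, with 2.96 and 0.704 FPKM in controls 1 and 2, control 3 between them, and 2.90, 10.7 and 19.6 FPKM as lowest, median and highest in NE, which overlapped at the lower end. Its log2 fold change was 2.04 (SE 0.48, limma adjusted p = 0.0182).

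Igkv11-125 had 1.76, 0.187 and 1.41 FPKM in the controls, and 4.05 at the lowest, 9.14 at the median and 53.0 at the highest in NE, with no overlap. The log2 fold change was 2.77 (SE 0.70, limma adjusted p = 0.0262). It was the only member called higher also as a share of the pool (log2 fold change 2.03, limma adjusted p = 0.0309), with 0.0215% ± 0.00368 in controls and 0.161% ± 0.146 in NE (SD, n = 3 and 7). In control 2 the gene rested on 1 fragment. Fragment counting alone would give its share a coefficient of variation of 33.2% over the 17 libraries. Without control 2 the share gave the same log2 fold change of 2.03 but was not called (limma adjusted p = 0.105), and it was also not called without control 3, NE 2, NE 5 or NE 7. On shares, 0.238% of all rows were higher and 5.51% lower. Igkv8-30 rose less as a share (log2 fold change 0.67, limma adjusted p = 0.00507) and missed only the minimum fold change. Without control 2 its share gave 0.71 (limma adjusted p = 0.00946), and the range with 1 library left out was 0.61 to 0.71.

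Igkv6-25 and Igkv8-30 were the abundant ones of the 6. Igkv6-25 had 94.6, 5.55 and 123.2 FPKM in controls 1, 2 and 3 and 161.7, 242.3 and 436.6 FPKM as lowest, median and highest in NE (log2 fold change 2.57, SE 0.75, limma adjusted p = 0.0450). Igkv8-30 had 72.6, 9.49 and 74.5 FPKM in controls and 93.6, 184.3 and 256.8 FPKM in NE (log2 fold change 2.09, SE 0.58, limma adjusted p = 0.0362). Neither gene overlapped between the groups, and in both control 2 was by far the lowest library. Groups without overlap were seen for 7 members, all higher in NE, against 3.24% higher and 15% lower of all genes.

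Shares fell for a pair of members. Igkv14-130 had shares of 2.36%, 0.729% and 0.195% in controls 1, 2 and 3, and 0.0318% at the lowest, 0.0948% at the median and 0.188% at the highest in NE (log2 fold change of the share -2.78, limma adjusted p = 0.0217). Igkv6-13 had 0.323%, 0.548% and 0.321% in controls and 0.0428% to 0.294% in NE (log2 fold change of the share -1.76, limma adjusted p = 0.0176). In level, neither was called. Without control 2 the log2 fold changes of the shares were -2.76 and -1.51 and neither was called (limma adjusted p = 0.0834 and 0.0973), and the share of Igkv14-130 was also not called without control 1. In level, the 3 tested members with the smallest p toward lower values in NE were Igkv14-130, Igkv4-62 and Igkv1-99 (log2 fold change -1.41, -1.05 and -0.96), and with all libraries none of them was called (limma adjusted p = 0.248, 0.377 and 0.491). These values moved with single libraries. The log2 fold change of Igkv14-130 was -0.11 without control 1 and -2.36 without control 2, and that of Igkv4-62 was 0.14 without control 3 and -2.13 without control 2. Igkv1-99, whose highest NE library was NE 5, was called lower without that library (log2 fold change -1.61, limma adjusted p = 0.00781).

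Among the lists on the B lineage, Irf4 was the gene called, where 0.27% of all genes tested were higher and 5.49% lower. Irf4, a transcription factor of plasma cells that also acts at the kappa enhancers, was the 1 called gene among 13 tested plasma cell genes and among 27 tested genes of kappa recombination and transcription. It measured 6.08, 4.19 and 4.45 FPKM in controls and 5.82 to 17.9 FPKM in NE (log2 fold change 1.05, limma adjusted p = 0.0314). It lost its call without control 2 (log2 fold change 0.97, adjusted p = 0.130), control 3 or NE 1, 2, 3, 4 or 5. Of 11 tested mature B-cell genes, 9 of B-cell precursors, 6 kappa constant and joining segments, 3 lambda constant and 8 heavy constant segments, 0 were called in either direction.

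**Figure D4:**
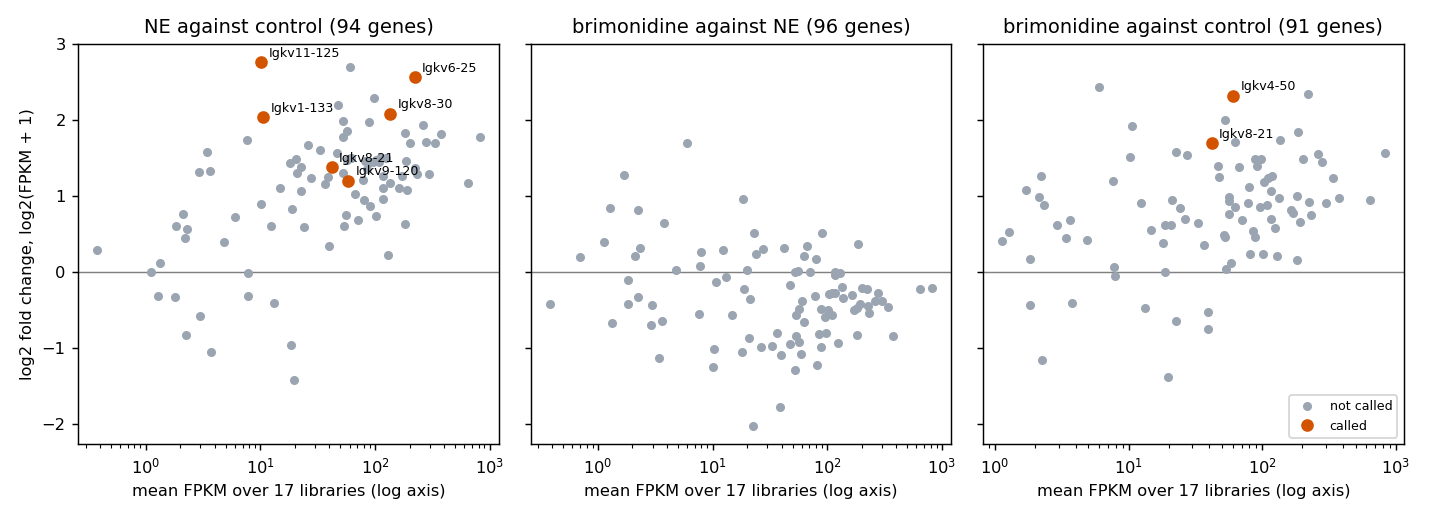
Log2 fold change on the log2(FPKM + 1) scale of each tested member against its mean FPKM over 17 libraries (log axis) in the 3 comparisons. Called members are orange and named, 6 in NE against control, 0 in brimonidine against NE and 2 in brimonidine against control.

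Brimonidine with noise was compared with NE without the drug. The study's methods state no injection for NE mice, so drug and injection cannot be told apart in this comparison. Of 96 members tested (4 were not), 0 were called in either direction (limma), as was the case for 0% of all 15707 genes in both directions, and 0 were called by voom on recovered fragments. The study, which used DESeq2 on counts with the same limits, reported changed genes in both directions for this comparison. At an unadjusted p under 0.05, 4 members were higher and 9 lower, against 3.3% and 2.46% of all genes. Fold changes were below 0 for 68 of 96, with a median of -0.35 against 0.01 over all genes. Groups without overlap were found for 0 members, against 0.102% higher and 0.0382% lower of all genes.

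The 3 members with the smallest p in each direction are given with their values. Igkv4-61 had 11.7 FPKM at the lowest, 45.9 at the median and 177.3 at the highest in NE and 6.03, 10.6 and 44.0 FPKM in brimonidine (log2 fold change -1.78, SE 0.53, limma adjusted p = 0.603). Igkv12-41, the other gene named as a qPCR target, had 15.5, 83.7 and 130.7 FPKM in NE and 21.7, 25.3 and 43.9 FPKM in brimonidine (log2 fold change -1.29, SE 0.39, limma adjusted p = 0.603). Igkv9-120 had 22.1, 35.1 and 71.2 FPKM in brimonidine (log2 fold change -1.08, SE 0.23, limma adjusted p = 0.262). For Igkv9-120 the exact two-sided permutation test gave p = 0.00175 and for Igkv12-41 p = 0.0152 (n = 7 and 7), before any adjustment, and both genes had been chosen by the study from these libraries. The study reports that noise raised both genes and that brimonidine lowered them, from its sequencing test and from qPCR.

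In the other direction the 3 genes were of low level. Igkv3-9 had 0.159, 0.636 and 9.59 FPKM as lowest, median and highest in NE and 1.24, 5.72 and 44.9 FPKM in brimonidine (log2 fold change 1.70, limma adjusted p = 0.757). Igkv4-51 was at 0 in 4 of 7 NE libraries and reached at most 2.02 FPKM there, against 0.458 to 11.2 FPKM in brimonidine (log2 fold change 1.27, limma adjusted p = 0.717). Igkv8-16 had 0.447 to 2.55 FPKM in NE and 0.742 to 7.30 FPKM in brimonidine (log2 fold change 0.81, limma adjusted p = 0.797). All of these overlapped between groups.

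Brimonidine with noise was also compared with control, which shares its controls with the NE comparison. Of 91 members tested (9 were not), 2 were called higher (Igkv8-21 and Igkv4-50) and 0 lower, against 0.169% and 5.56% of all 15947 genes. The median fold change was 0.86 against -0.03 over all genes, and 81 of 91 were above 0. With array weights the median was 0.03 and 46 of 91 were above 0. At an unadjusted p under 0.05, 15 members were higher and 0 lower, against 13.6% and 22% of all genes. These counts became 7 and 3 members without control 2, against 1583 and 2337 of all 15535 genes. Without control 2 the median was 0.10, 55 of 91 were above 0 and 0 members were called, with adjusted p of 0.0963 for Igkv8-21, whose log2 fold change was 1.73 in place of 1.70, and 0.183 for Igkv4-50, whose log2 fold change was 1.28 in place of 2.33.

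Igkv8-21 had 20.1, 44.1 and 112.5 FPKM as lowest, median and highest in brimonidine, above all controls (log2 fold change 1.70, SE 0.48, limma adjusted p = 0.0385). Igkv4-50 had 16.1, 1.12 and 19.3 FPKM in controls 1, 2 and 3 and 18.0, 52.6 and 123.7 FPKM in brimonidine (log2 fold change 2.33, SE 0.71, limma adjusted p = 0.0496), with an overlap at the lower end. Igkv8-30 (log2 fold change 1.74, limma adjusted p = 0.0506) did not pass the threshold. Its log2 fold change was 0.80 without control 2, and it was called without control 1 (2.21, limma adjusted p = 0.0224) or control 3 (2.23, limma adjusted p = 0.0340). Igkv4-50 also lost its call without brimonidine 1, 2, 3, 5, 6 or 7, and Igkv8-21 without control 3 or brimonidine 1, 3, 4, 5 or 7. Toward lower levels the smallest p belonged to Igkv14-130, Igkv4-81 and Igkv2-112 (log2 fold change -1.38, -1.15 and -0.64), with limma adjusted p = 0.250, 0.359 and 0.363. Leaving out control 2 gave log2 fold changes of -2.32, -1.91 and -1.05 for the 3 genes, while leaving out control 1 gave -0.07 for Igkv14-130 and -0.17 for Igkv2-112. Igkv8-21 and Igkv8-30 were the 2 members with groups without overlap, against 5.07% higher and 14.3% lower of all genes. On shares, Igkv14-130 was lower (log2 fold change -2.41, limma adjusted p = 0.0400), and 0.157% of all rows were higher and 5.56% lower. Without control 2 this share had a log2 fold change of -2.38 and was not called (limma adjusted p = 0.111). It was also not called without control 1 or brimonidine 1, 2, 3, 4, 6 or 7, and the change nearest to 0 with 1 library left out was -1.54. Of the 6 constant and joining segments, Igkj3 and Igkj5 were called higher. Igkj5 measured 161.4, 48.6 and 139.2 FPKM in controls 1, 2 and 3 and 146.3 to 254.7 FPKM in brimonidine. Without control 2 neither was called, and their log2 fold changes were 0.51 and 0.55 in place of 1.04 and 1.08 (limma adjusted p = 0.0681 and 0.106). Igkj3 also lost its call without any 1 of the 7 brimonidine libraries, and Igkj5 without brimonidine 1, 2, 4, 5, 6 or 7.

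Several members were high in a single library. Igkv20-101-2 stood at 168.0 FPKM in NE 2 and at most 1.97 FPKM in the other 16 libraries, and rested on 1009 of its 1043 fragments from NE 2. Igkv4-90 stood at 206.1 FPKM in the same library against at most 20.8 FPKM elsewhere. Igkv14-130 had 165.0 FPKM in control 1, 7.26 times the next library.
Igkv20-101-2 (chr6:68475042-68475101, plus strand): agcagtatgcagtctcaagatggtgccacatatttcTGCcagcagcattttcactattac
Igkv4-90 (chr6:68807179-68807238, minus strand): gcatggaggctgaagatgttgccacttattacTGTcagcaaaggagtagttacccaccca
Igkv14-130 (chr6:67791452-67791511, plus strand): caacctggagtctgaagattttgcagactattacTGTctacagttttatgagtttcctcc
These ends are printed because each gene was far higher in a single library than elsewhere. Igkv4-58 had 100.1 FPKM in NE 1 against at most 22.0 FPKM elsewhere, and Igkv8-18 had 165.1 FPKM in brimonidine 2 against at most 50.4 FPKM. The 3 groups each held such a library.

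**Figure D5:**
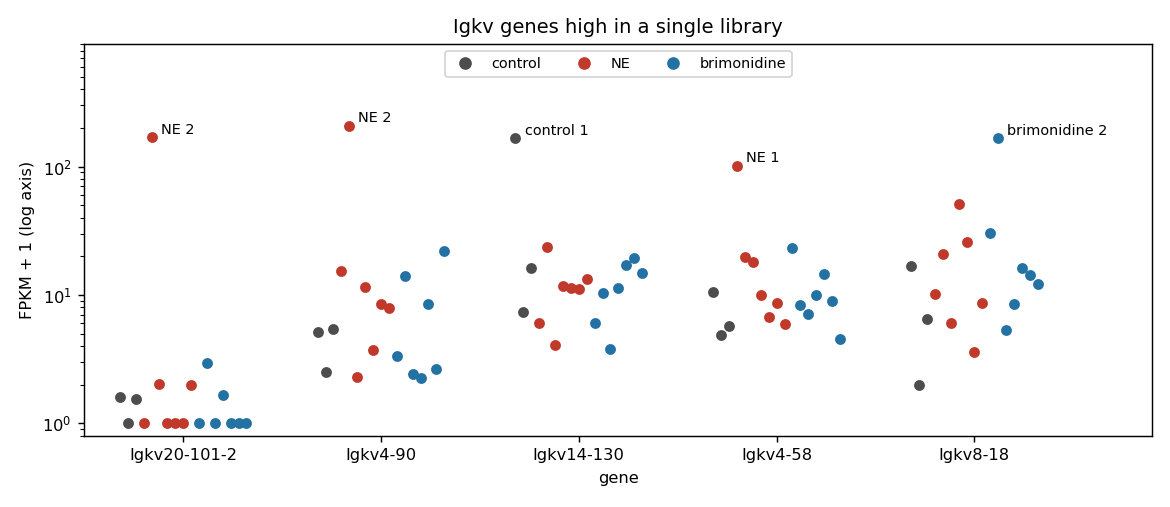
FPKM + 1 (log axis) of 5 genes chosen for 1 high library, in each of the 17 libraries, colored by group. The named library of each gene lies at 100 to 206 FPKM, and the next highest at 1.97 to 50.4 FPKM.

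The qPCR primer pairs listed by the study for its 2 kappa genes were matched to the transcripts, since alike members can share a primer.
Igkv12-41 forward: tcagtctccagcctccctatc
Igkv12-41 reverse: ccactgaaccttgatggcacac
Igkv9-120 forward: tgcccgacaagtgagactga
Igkv9-120 reverse: tgttgactggcatttgggggat
The Igkv12-41 pair matched 3 members without a mismatch, Igkv12-41, Igkv12-44 and Igkv12-46, each over 177 bases, and also the pseudogene Igkv12-40. The mean levels of the 3 members were 52.1, 170.3 and 116.8 FPKM, so Igkv12-41 was the lowest of them. For the Igkv9-120 pair, the reverse complement of the forward primer lay in the transcripts of Igkv9-120 and Igkv9-124, and the reverse primer lay in none of 141767 transcripts on either strand. Introns and flanking sequence were not searched.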

How the data were processed

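RNA was sequenced from 17 cochlear libraries, each from a separate mouse per the study's methods, so p-values measure the spread between these mice. Per the labels, total RNA was extracted with Trizol and mRNA libraries were made with a stranded TruSeq kit. The deposited table holds FPKM for 35285 genes, that is, fragments of a gene divided by its exon length and by the fragments counted in the library. The submitters' processing notes name Trimmomatic, HISAT2, Cufflinks and HTSeq with the mm10 build, and the strand setting and the treatment of fragments that match several genes are not given in the sources used here. The study tested counts with DESeq2, which was not applied to FPKM.

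Multiplied by merged exon lengths of GENCODE M21, the values of all 100 members were whole fragments within a tolerance of 0.02, as were 91.1% of all values above 0. This gave 14457733 to 18288854 counted fragments per library. All deposited columns belong to the 17 samples, and groups come from the labels.

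A gene was tested if 3 or more libraries of the comparison had 1 FPKM or more. The model was limma 3.58.1 (R 4.3.3) on log2(FPKM + 1), with a trend in eBayes, and held no group outside the comparison. Adjustment (Benjamini-Hochberg) covered all genes tested. Fold changes on this scale understate the change of low genes. In share fits the Igkv rows were replaced by the share of the library's Igkv total, rescaled to the mean total. Exact two-sided permutation tests used the absolute difference of means of log2(FPKM + 1) over all splits, where the smallest p possible is 0.00833 for 7 against 3 libraries and 0.000583 for 7 against 7. The scripts were tested on simulated data. Totals, shares, diversity and ratios over the members carry no test.

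The members and lists were chosen with earlier results of these data known. Named genes were the 8 highest, the highest gene of any library, for each comparison the 3 with the lowest p on either side, those called on shares, the 2 genes the study names, and the 5 with the largest ratio of the highest to the second library (mean of at least 5 FPKM). Igkv6-25 fell outside this rule and was named because it was 1 of the 6 called. Primer sequences are those listed by the study. Alternatives covered the pseudocount (0.1), no filter on low values, rescaling, 1 model for all libraries, array weights, the replicate block, a robust fit, no minimum fold change, voom on recovered fragments, and each library left out. Figures were drawn with matplotlib 3.10.9 in Python 3.11.15.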

Additional observations from a re-analysis of the deposited data

Results flagged for a closer look

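Within the NE and the brimonidine group, 15 of 68 groups of 7 values had a library farther from the rest than expected for groups of this size. Chance alone marks about 1 in 20 if values are normally distributed, which was not checked for these FPKM. All 15 were the highest library of their group. Several of the genes were named because a single library was high, so this number describes them and is not a rate. In NE, Igkv20-101-2 stood at 168.0 FPKM and Igkv4-90 at 206.1 FPKM in NE 2, next to 1.01 and 14.4 FPKM in the following library. Igkv3-9 stood at 9.59 FPKM in NE 2 with a group median of 0.636 FPKM. Igkv4-50 stood at 328.7 FPKM and Igkv4-58 at 100.1 FPKM in NE 1, next to 76.1 and 18.6 FPKM. Igkv1-99 stood at 74.8 FPKM in NE 5, next to 4.22 FPKM.

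In the brimonidine group, Igkv1-99 stood at 161.2 FPKM, Igkv3-9 at 44.9 FPKM and Igkv11-125 at 16.2 FPKM in brimonidine 4, next to 15.1, 16.6 and 6.26 FPKM. Igkv8-18 stood at 165.1 FPKM, Igkv4-61 at 44.0 FPKM, Igkv4-51 at 11.2 FPKM and Igkv20-101-2 at 1.97 FPKM in brimonidine 2, next to 29.1, 20.5, 4.42 and 0.660 FPKM. Igkv4-50 stood at 123.7 FPKM in brimonidine 5, next to 59.0 FPKM, and Igkv1-135 at 546.9 FPKM in brimonidine 6, next to 232.1 FPKM. The Igkv total, the effective number of genes and the ratio to Igkc had no library set apart in this way in either group of 7.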

How the results depend on the processing

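The numbers of called members are given first, and the genes behind them differed between settings. In NE against control, 6 members were called higher, against 3 with no filter on low values (Igkv1-133, Igkv11-125, Igkv9-120), 3 with voom on recovered fragments (Igkv6-25, Igkv8-30, Igkv9-120), 16 with all 17 libraries in 1 model (without Igkv1-133) and 14 with array weights, which also gave 6 lower. Quantile normalization gave 6 with Igkv5-45 in place of Igkv6-25. In brimonidine against control, 2 members were called higher, against 0 with no filter, 4 with quantile normalization (Igkv8-21 but not Igkv4-50), 7 with all libraries in 1 model, 7 with array weights (and 9 lower), 1 with a robust fit (Igkv8-21) and 1 with voom (Igkv8-30). A pseudocount of 0.1 gave 2, with Igkv3-9 in place of Igkv4-50. On shares in NE against control, 1 higher became 0 with no filter, 6 with array weights and 2 with no minimum fold change, and 2 lower became 9 with array weights. On shares in brimonidine against control, 0 higher became 1 with a pseudocount of 0.1, 1 after rescaling by the median ratio, 1 with quantile normalization, 2 with all libraries, 6 with array weights and 1 with no minimum fold change, and 1 lower became 0 with no filter, 2 with all libraries and 9 with array weights. In brimonidine against NE, 0 members were called under any of these. Quantile normalization moved the median log2 fold change of all genes from -0.04 to 0.06 in NE against control and from -0.03 to 0.07 in brimonidine against control. The cause of these changes was not tested.

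With each library left out in turn, called members ranged from 1 (without control 2) to 14 (without control 1) higher and 0 to 1 lower (Igkv1-99, without NE 5) in NE against control, with 2 without NE 2 and 3 without NE 1 or NE 3, and 10 without control 3. They ranged from 0 to 16 higher in brimonidine against control, with 0 without control 2, brimonidine 1 or brimonidine 3, 1 without brimonidine 5, 6 or 7, 5 without control 3 and 16 without control 1. On shares the ranges were 0 to 1 higher and 1 to 6 lower in NE against control, and 0 to 2 higher and 0 to 6 lower in brimonidine against control. The Igkv total, as a log2 ratio of geometric means, ranged from 0.44 to 2.02 in NE against control and from 0.048 to 1.64 in brimonidine against control, both lowest without control 2. In brimonidine against NE that log2 ratio ranged from -0.52 to -0.26. The log2 fold change of Igkc in NE against control ranged from 0.43 (without control 2) to 1.87. In brimonidine against control, the log2 fold change of Igkc ranged from -0.017 to 1.42, of Igkv12-41 from -0.32 to 1.42 (and was -1.14 with array weights) and of Igkv9-120 from -0.030 to 0.25, while Igkv4-62 in NE against control ranged from -2.13 to 0.14.

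Same-numbered libraries did not deviate together (correlations from -0.22 to 0.08), and the numbers name separate mice. With the replicate block, called members were 0 higher and 0 lower in NE against control, 1 higher and 0 lower in brimonidine against control, and 0 in brimonidine against NE. Controls carry only the numbers 1, 2 and 3, so exposed libraries with other numbers do not inform the block's comparisons with control. Of all genes, the block called 0 of 15950 in NE against control. In brimonidine against control it called 2 higher and 234 lower of 15947. On shares the block gave 0 higher and 0 lower in NE against control, and 0 higher and 2 lower in brimonidine against control.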
